A study of Mus musculus with 2 samples.

Results

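Endocrine cells of the pancreas are set up by a small relay of transcription factors, and 9 of these genes (Neurod1, Insm1, Isl1, Nkx2-2, Pax6, Rfx6, St18, Myt1 and Fev) were followed here through pancreatic tumours of transgenic mice. They were picked by symbol from the 32285 genes listed for every cell, with earlier results of these data known. The cells came from 2 libraries of 10x Chromium 3′ single-cell RNA sequencing, 1 for each genotype, both at 6 weeks of age. The EL1 library came from FVB/N mice with a pair of transgenes, the SV40 large T antigen and firefly luciferase, each driven by the rodent elastase I promoter, which is active in acinar cells. The WTg library came from the cross of EL1 with mice that express the Mettl3 open reading frame from the CAG promoter, so these tumours carry all 3 transgenes. The CAG-Mettl3 mice were made in the BL/6 strain, so strain background and the Mettl3 transgene cannot be told apart. How many animals went into a library, and their sex, are not given in the sources used here.

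A barcode counted as a cell from 500 genes and 1000 unique molecular identifiers (UMIs, each a counted transcript molecule) upward, where mitochondrial UMIs made up no more than 20%, which left 1113 of 1621 EL1 barcodes with 37961287 UMIs and 905 of 1488 WTg barcodes with 33007683 UMIs. Median depth was 26543 UMIs per cell in EL1 and 34836 in WTg. Mettl3 stood at 15.1 CPM (counts per 1000000 UMIs) in the EL1 library and 66.7 CPM in the WTg library, in the order that the labels give. With 1 library per genotype no difference between genotypes can be tested, and every interval below is a 95% interval for counting error only. Of 15 cell barcodes found in both libraries, 14 belonged to deep EL1 cells of 127067 to 228500 UMIs whose WTg namesakes had 500 to 880 UMIs and were not kept.

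As background, Neurog3 starts the endocrine program in a progenitor cell and is then switched off, and the factors described here act after it. Neurod1 is a basic helix-loop-helix factor that Neurog3 turns on directly. Insm1 is a zinc finger repressor shared by islet, gut and lung neuroendocrine cells, and Rfx6 is a winged-helix factor needed for islet cell types. Isl1, Nkx2-2 and Pax6 are homeodomain factors that hold islet cells in their mature state and act on hormone genes. St18 and Myt1 are related zinc finger factors of the endocrine and neural lineages, and Fev is an ETS factor of serotonin neurons that also marks endocrine progenitors. Chga encodes chromogranin A, a protein of the dense-core secretory granule and the usual marker of neuroendocrine cells.

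In the GRCm38 annotation 5 of the 9 genes lie on chromosome 2. These are Neurod1 (chr2:79452521-79456751, minus strand), Pax6 (chr2:105668900-105697364, plus strand), Insm1 (chr2:146221921-146225020, plus strand), Nkx2-2 (chr2:147177546-147194243, minus strand) and Myt1 (chr2:181763332-181827797, plus strand). Fev (chr1:74881509-74885419, minus strand) and St18 (chr1:6487231-6860940, plus strand) share chromosome 1. Rfx6 lies at chr10:51677756-51730432 on the plus strand and Isl1 at chr13:116298281-116309689 on the minus strand. Nkx2-2 and Pax6 overlap genes of the opposite strand, and Neurod1 overlaps Gm26755 on the opposite strand and Cerkl on its own strand. Cerkl held 14 UMIs in EL1 and 8 in WTg, so reads of the shared stretch could belong to either gene.

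The 250 bases before the transcription start are shown for Neurod1, Isl1 and Nkx2-2, the genes that separated the neuroendocrine-like clusters most (below). The sequences are from RefSeq on GRCm38.p6, written 5′ to 3′ on the strand of the gene, with E-boxes in capitals. The E-box, CANNTG, is the motif that basic helix-loop-helix factors such as Neurod1 bind, and it reads the same on both strands. Neurod1 (chr2:79456637-79456886, minus strand), Isl1 (chr13:116309689-116309938, minus strand) and Nkx2-2 (chr2:147186403-147186652, minus strand):
Neurod1: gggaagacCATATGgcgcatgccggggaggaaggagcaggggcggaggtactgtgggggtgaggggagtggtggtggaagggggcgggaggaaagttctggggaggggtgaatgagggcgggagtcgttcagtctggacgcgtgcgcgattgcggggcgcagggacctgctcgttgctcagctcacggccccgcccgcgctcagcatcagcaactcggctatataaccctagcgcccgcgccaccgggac
Isl1: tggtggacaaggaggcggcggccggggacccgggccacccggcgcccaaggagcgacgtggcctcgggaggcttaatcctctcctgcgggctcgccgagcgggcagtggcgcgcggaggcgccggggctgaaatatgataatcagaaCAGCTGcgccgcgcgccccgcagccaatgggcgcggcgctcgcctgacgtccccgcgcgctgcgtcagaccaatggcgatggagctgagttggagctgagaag
Nkx2-2: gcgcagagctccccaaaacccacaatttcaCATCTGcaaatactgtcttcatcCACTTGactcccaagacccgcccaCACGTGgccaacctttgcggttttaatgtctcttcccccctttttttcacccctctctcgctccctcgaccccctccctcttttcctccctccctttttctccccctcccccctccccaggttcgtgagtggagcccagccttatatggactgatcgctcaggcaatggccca

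The Neurod1 and Isl1 windows hold 1 E-box each, 242 and 103 bases before the start, and the Nkx2-2 window holds 3, between 220 and 173 bases before it. Of all 32851 RefSeq promoter windows of this length, 66.2% hold at least 1, so a match sets none of these genes apart. The windows of Rfx6 and Fev hold none, and those of Pax6 and Myt1, which have several start sites, hold 0 to 1 and 0 to 2.

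Over all kept cells, Insm1 was lower in WTg than in EL1, Neurod1 and Rfx6 were higher by less than 2-fold, and the ratios of St18 and Myt1 were near 0. Insm1 had 1586 UMIs in 432 EL1 cells, 41.8 CPM (39.7 to 43.9), and 580 UMIs in 174 WTg cells, 17.6 CPM (16.2 to 19.1). WTg over EL1 this gave a log2 ratio of -1.25 (-1.39 to -1.11), which lay between -1.45 and -1.14 in the 10 other settings tried. Cells of both libraries were also thinned to 5000 UMIs each, which left out 138 EL1 and 157 WTg cells as too shallow, to compare shares at equal depth. On this footing 15.2% of the EL1 cells (13.0 to 17.6) had a UMI of Insm1, compared with 6.15% for WTg (4.54 to 8.12). Before thinning these shares were 38.8% and 19.2%.

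Neurod1 had 53 UMIs in 29 EL1 cells, 1.40 CPM, and 75 UMIs in 31 WTg cells, 2.27 CPM. Rfx6 had 79 UMIs in 64 EL1 cells, 2.08 CPM, and 121 UMIs in 90 WTg cells, 3.67 CPM. The log2 ratios were 0.70 (0.18 to 1.24) for Neurod1 and 0.82 (0.40 to 1.24) for Rfx6. Both intervals lie above 0, and both genes are carried by under 10% of the cells of either library. Their UMIs were not spread alike: the 5 EL1 cells with most Neurod1 held 41.5% of its UMIs, against 15.2% for Rfx6.

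St18 had 593 UMIs, 15.6 CPM, across 298 cells of EL1 and 519 UMIs, 15.7 CPM, across 252 cells of WTg, which is a log2 ratio of 0.01 (-0.16 to 0.18). Myt1 had 160 EL1 UMIs, 4.21 CPM, and 125 WTg UMIs, 3.79 CPM, with a log2 ratio of -0.15 (-0.50 to 0.19). Nkx2-2 had 107 EL1 UMIs, 2.82 CPM, and 63 WTg UMIs, 1.91 CPM, with a log2 ratio of -0.56 (-1.04 to -0.10). When every cell was given equal weight, the Nkx2-2 ratio was close to 0, at -0.07, and the Myt1 ratio moved to -0.71. Isl1 was rare in both libraries, where 16 UMIs fell in 11 cells of EL1 and 16 in 10 cells of WTg, with a log2 ratio of 0.20 (-0.89 to 1.30).

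Pax6 and Fev were at the edge of detection. Pax6 had 2 UMIs in EL1 and 1 in WTg, and Fev had 1 and 2, each UMI in a cell of its own. In a library of this size 3 UMIs amount to 0.0790 CPM for EL1 and 0.0909 CPM for WTg, so no ratio is given for either gene. All 3 Pax6 UMIs lay in neuroendocrine-like cells and all 3 Fev UMIs outside them.

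**Figure D1:**
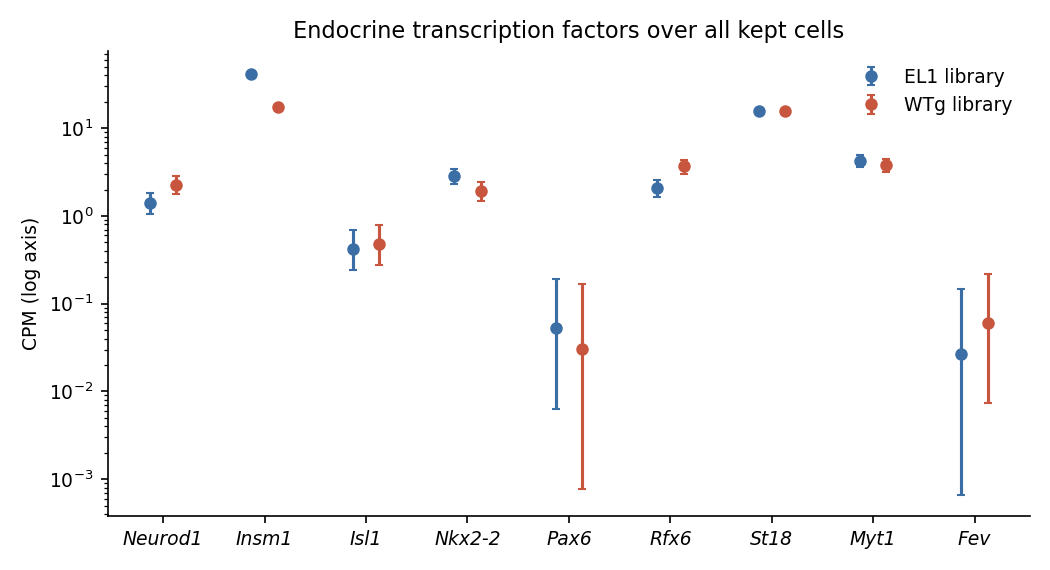
Level of each gene in CPM (log axis) over the 1113 EL1 cells (blue) and 905 WTg cells (red). Points are library totals and bars are 95% Poisson intervals. Insm1 stands apart at 41.8 and 17.6 CPM, and of the other genes only Rfx6 has bars that do not overlap between libraries. The share of all genes with bars apart is not given here, so nothing is read from this.

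Of the 9 genes, 6 had at least 50 UMIs over both libraries, which leaves out Isl1, Pax6 and Fev. Their median log2 ratio was -0.07, beside -0.15 for all 13467 genes with that many UMIs. With a log2 ratio past 1 taken as a change, 1 of the 6 was lower in WTg (Insm1), against 4.59% of all genes, and 0 of the 6 were higher, against 6.85%. The list showed no common direction between the libraries, with 3 of the 6 above 0, against 35.0% of all genes, and 3 below. The intervals of St18 and Myt1 include 0.

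Cells were then grouped into 18 clusters by their expression of other genes. The 9 factors, Mettl3, Plk1 and the cell cycle genes took no part in the grouping. Clusters 1 and 6 carried markers of secretory granules and were named neuroendocrine-like, together 270 EL1 cells and 108 WTg cells. Cluster 1 held 244 cells, all of EL1, and was led by Resp18, Penk, Tff3 and Hdc. Cluster 6 held 26 EL1 and 108 WTg cells and was led by Serpina1b and other Serpina1 genes and by Pcsk2, a prohormone convertase. The islet hormones Ins1, Ins2, Gcg and Sst, which were on the marker list, had 0 UMIs in both clusters, as had Tph1, the enzyme of serotonin synthesis outside the brain. Ppy, pancreatic polypeptide, had 33 UMIs in cluster 1 and 4 in the WTg cells of cluster 6.

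Immune cells gave the background. The 40 EL1 and 47 WTg macrophage-like cells held 0 UMIs of any of the 9 factors in 531144 and 988595 UMIs. With lymphocyte-like cells added, 1 Insm1 UMI was found in 50 EL1 cells and 0 of any factor in 67 WTg cells, with median depths of 6882 and 8161 UMIs. After thinning, 1 of 27 EL1 immune-like cells carried a factor and 0 of 43 WTg cells did, which allows a share of up to 6.98% (3 counts of the total), or 8.22% by the exact interval. Chga itself reached 91.6 CPM in EL1 and 15.3 CPM in WTg immune-like cells.

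Insm1 was found in nearly all EL1 clusters outside the immune cells and was concentrated in fewer WTg clusters. In EL1 it was highest in cluster 6 (124.9 CPM, 91 UMIs), then in cluster 13, led by Fos and other immediate early genes (101.5 CPM, 119 UMIs). Cluster 5, led by Fst and Smarca1 (84.8 CPM, 364 UMIs), and the acinar-like cluster 9 (84.4 CPM, 15 UMIs) followed, and the neuroendocrine-like cluster 1 came after them with 56.6 CPM (435 UMIs). The counting intervals of clusters 6 and 13 overlap, and so do those of clusters 13, 5 and 9. Cluster 0, the biggest of EL1 with 288 cells, had 24.1 CPM, and cluster 12, led by the gastric proton pump genes Atp4b and Atp4a, had 2.38 CPM.

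In WTg, Insm1 was highest in cluster 6 (53.2 CPM, 204 UMIs), cluster 13 (45.1 CPM, 47 UMIs) and the mitotic cluster 11 (44.2 CPM, 192 UMIs), whose intervals overlap. The trypsinogen-rich cluster 2 had 10.8 CPM, and the acinar-like clusters 3 and 7 had 1.43 and 2.87 CPM. The value of cluster 7 came from 12 UMIs in 1 of its 109 cells. Clusters 4, 6, 9 and 13 had at least 20 non-immune cells from each library, and Insm1 was lower in WTg in 4 of these 4. The pairs were 26.4 and 8.83 CPM in cluster 4 (8 and 4 UMIs), 124.9 and 53.2 CPM in cluster 6, 84.4 and 5.65 CPM in cluster 9 (15 and 2 UMIs), and 101.5 and 45.1 CPM in cluster 13. Cluster 4 was shallow and held few UMIs of any factor.

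St18 broadly rose with Chga across clusters, though not in strict order. Its level in EL1 was 74.1 CPM in cluster 6, 42.7 CPM in cluster 13 and 32.0 CPM in cluster 1, and 5.62 CPM in cluster 0. In WTg it was 49.3 CPM in cluster 6, 25.9 CPM in cluster 13 and 22.3 CPM in cluster 11, and 4.54 CPM in the acinar-like cluster 3. In both cluster 6 and cluster 13 the EL1 value was above the WTg value, with overlapping intervals. EL1 cluster 5 held 15.4 CPM of St18 at 5846 CPM of Chga, below cluster 13 with 2923 CPM of Chga. WTg cluster 2 held 14.6 CPM of St18 at 2498 CPM of Chga, below clusters 13 and 11 with 1357 and 1975 CPM of Chga.

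Rfx6 and Myt1 peaked partly outside the neuroendocrine-like class. Rfx6 reached 16.3 CPM in WTg cluster 13 (17 UMIs), beside 9.92 CPM in cluster 6 (38 UMIs). Myt1 was highest in cluster 13 in both libraries, with 18.8 CPM (22 UMIs) in EL1 and 11.5 CPM (12 UMIs) in WTg. The intervals of clusters 13 and 6 overlap for Rfx6 in WTg and for Myt1 in both libraries, so neither peak is clearly above cluster 6.

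Across the 20 library-by-cluster sums with at least 20 cells, the level of Insm1 on the log2(CPM + 10) scale had a Pearson r of 0.79 with that of Chga, and St18 of 0.73. The values were 0.60 for Rfx6 and Myt1, 0.47 for Nkx2-2 and 0.41 for Neurod1. These 20 points come from 2 libraries and share depth and cell types, so they describe the clusters and carry no test.

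**Figure D2:**
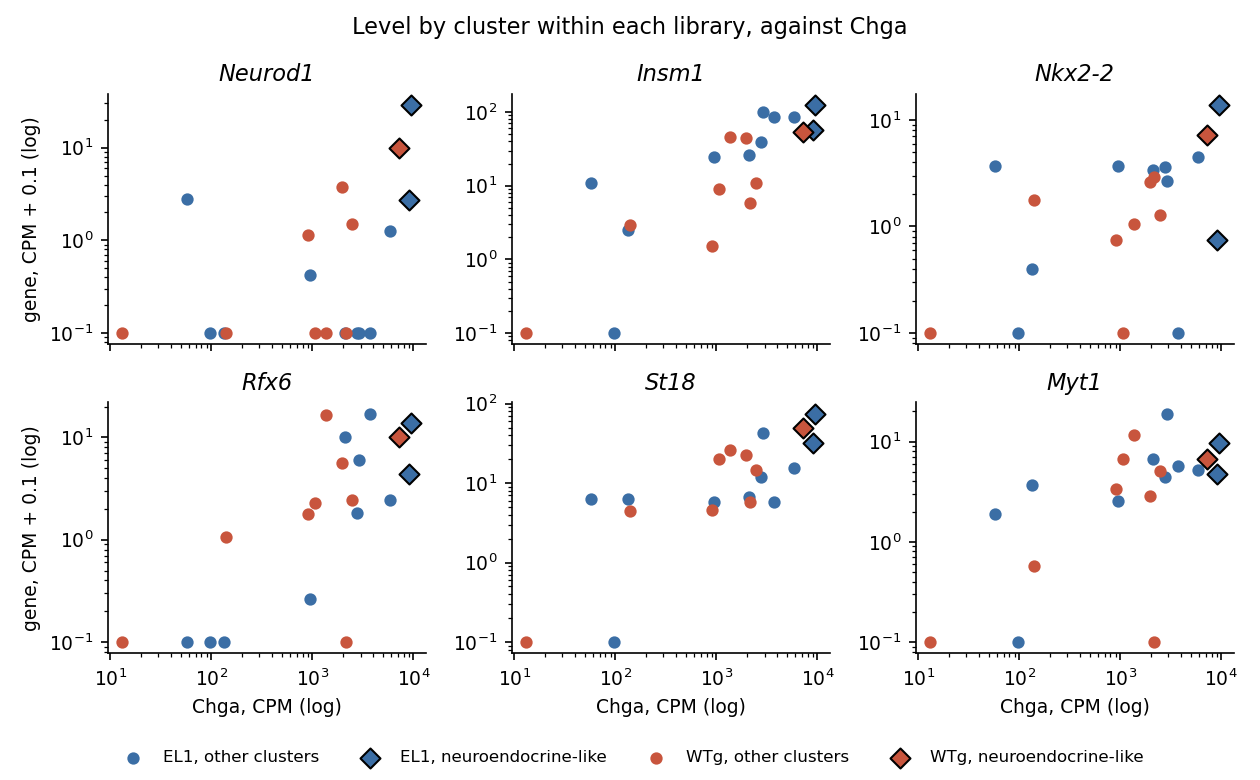
Level of 6 of the genes against that of Chga, both in CPM on log axes (0.1 was added to the gene so that 0 can be drawn), in the 20 library-by-cluster sums of at least 20 cells (blue EL1, red WTg; diamonds, neuroendocrine-like). Insm1 and St18 broadly climb with Chga, and in EL1 the diamonds split for Neurod1 (28.8 and 2.60 CPM) and Nkx2-2 (13.7 and 0.650 CPM).

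Within each library the neuroendocrine-like cells carried more Neurod1, Insm1, Rfx6 and St18 than the other non-immune cells. Neurod1 stood at 4.87 CPM in the EL1 class and 0.415 CPM outside it, and at 9.92 and 1.32 CPM in WTg, log2 ratios of 3.55 (2.60 to 4.62) and 2.91 (2.22 to 3.60). Insm1 stood at 62.5 and 36.6 CPM in EL1 and at 53.2 and 13.4 CPM in WTg, log2 ratios of 0.77 (0.62 to 0.92) and 1.99 (1.74 to 2.24). The ratio of Insm1 was thus smaller in EL1. Cells outside the class and not immune-like carried 1059 of its 1586 UMIs in EL1 and 376 of 580 in WTg. They include clusters that took no name but were rich in Chga. EL1 cluster 5 had 5846 CPM of Chga and 364 Insm1 UMIs, and WTg cluster 2 had 2498 CPM and 100 UMIs. Rfx6 had ratios of 2.04 (1.37 to 2.72) in EL1 and 1.75 (1.15 to 2.32) in WTg. St18 had ratios of 1.82 (1.58 to 2.05) in EL1 and 2.07 (1.80 to 2.33) in WTg.

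Nkx2-2 went in opposite directions. In EL1 it had 15 UMIs in the class, 1.78 CPM, and 92 UMIs, 3.18 CPM, in the other non-immune cells, a log2 ratio of -0.83 (-1.73 to -0.04). In WTg it had 27 UMIs, 7.05 CPM, in the class and 36 UMIs, 1.28 CPM, outside it, a log2 ratio of 2.46 (1.68 to 3.22). Myt1 had smaller ratios, 0.34 (-0.20 to 0.85) in EL1 and 0.87 (0.18 to 1.52) in WTg.

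**Figure D3:**
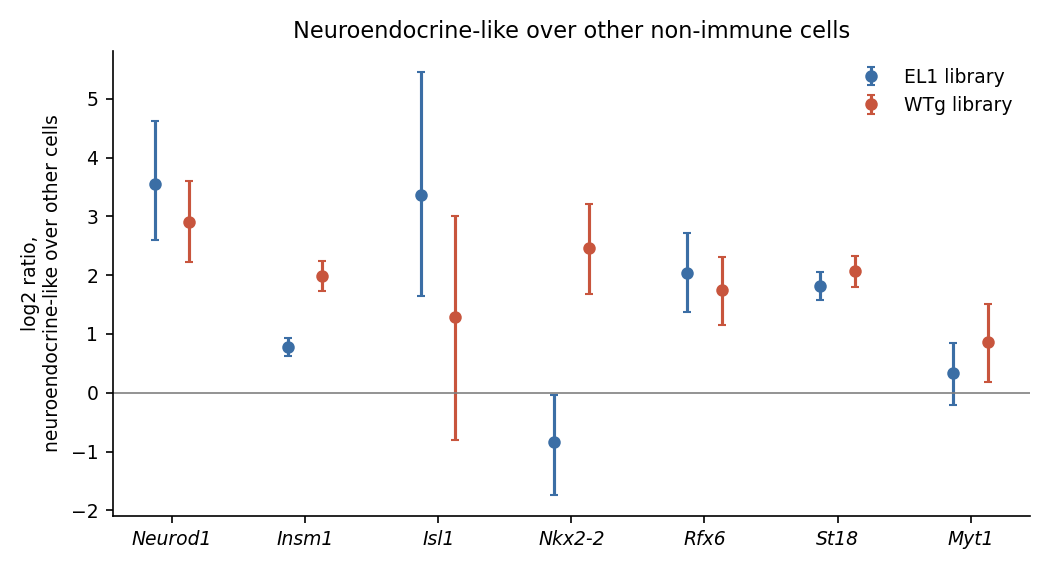
Log2 ratio of the level in neuroendocrine-like cells over that in the other non-immune cells of the same library (blue EL1, red WTg), with 95% counting intervals. Nkx2-2 lies at -0.83 in EL1 and at 2.46 in WTg, and Neurod1 and St18 lie above 1 in both libraries.

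Between the libraries, inside the neuroendocrine-like class, Neurod1 and Nkx2-2 were higher in WTg, St18 and Rfx6 were higher by less, and Insm1 was near level. The log2 ratios of WTg over EL1 were 1.03 (0.35 to 1.70) for Neurod1, 1.98 (1.02 to 2.999) for Nkx2-2 and 0.96 (0.29 to 1.62) for Rfx6. They were 0.47 (0.20 to 0.74) for St18, 0.35 (-0.42 to 1.10) for Myt1 and -0.23 (-0.47 to 0.00) for Insm1. The class is made of unlike parts in the libraries: 244 of its 270 EL1 cells were of cluster 1, and 108 of its 108 WTg cells of cluster 6. With a finer grouping (resolution 2, 172 EL1 and 87 WTg cells in the class) the Neurod1 ratio turned to -1.67, and with a coarser one (resolution 0.5, 277 and 197 cells) the St18 ratio turned to -0.14. Insm1 moved to -0.77 and -0.71 under the finer and the coarser grouping, and under the coarser one Neurod1 fell to 0.27, Rfx6 to 0.20 and Nkx2-2 to 0.96. These ratios therefore depend on where the class is drawn.

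Of the 5 genes with at least 50 UMIs in the class, 1 was higher past a log2 ratio of 1 (Neurod1), against 5.35% of 10374 genes, and 0 were lower, against 2.71%. Their median was 0.47 beside 0.07 for all genes. Nkx2-2, with 42 UMIs in the class, is not among the 5.

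The clusters of the class differed sharply in EL1, where their pooled Chga levels were nearly equal (9110 CPM in cluster 1 and 9521 CPM in cluster 6). Cluster 6 was itself mixed: at resolution 2 (below), 12 of its EL1 cells stood at 15007 CPM of Chga and 13 at 5444.5 CPM. Those 13 cells held 20 Neurod1 and 10 Isl1 UMIs. Of all 12267 genes with at least 10 UMIs, 64.5% were above 0 for cluster 6 over cluster 1, with a median of 0.24. This contrast was chosen after the values were seen. Neurod1 had 20 UMIs in 10 of the 244 cells of cluster 1, 2.60 CPM, and 21 UMIs in 9 of the 26 cells of cluster 6, 28.8 CPM, a log2 ratio of 3.47 (2.51 to 4.43). Isl1 had 1 UMI in cluster 1, 0.130 CPM, and 11 UMIs in 7 cells of cluster 6, 15.1 CPM, a log2 ratio of 6.86 (4.08 to 12.3). Nkx2-2 had 5 UMIs in cluster 1, 0.650 CPM, and 10 UMIs in 6 cells of cluster 6, 13.7 CPM, a log2 ratio of 4.40 (2.72 to 6.30). Nearly all Isl1 of the class in EL1 thus lay in the small cluster, while Neurod1 was divided evenly by UMIs between clusters of very unlike size. The ratios were 1.14 (0.80 to 1.47) for Insm1, 1.68 (0.49 to 2.73) for Rfx6, 1.21 (0.76 to 1.64) for St18 and 1.04 (-0.38 to 2.22) for Myt1.

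None of the 15 barcodes shared by the libraries lay in cluster 6. Among the 18 markers of the class, Pcsk2 and Resp18, a granule protein, differed widely between the EL1 clusters. Pcsk2 stood at 0.520 CPM in cluster 1 and 56.3 CPM in cluster 6, and Resp18 at 129.8 and 13.7 CPM. Others were closer, such as Chgb at 532 and 642 CPM, Scg3 at 38.8 and 45.3 CPM, Syp at 94.7 and 91.9 CPM and Cpe at 388 and 329 CPM.

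Cluster 6 was the part of the class that held cells of both libraries, and there the WTg level was below the EL1 level for Insm1, Neurod1, St18 and Isl1. The log2 ratios of WTg over EL1 were -1.54 (-2.34 to -0.70) for Neurod1, -1.23 (-1.59 to -0.86) for Insm1, -0.59 (-1.03 to -0.12) for St18 and -3.85 (-5.96 to -2.10) for Isl1, the last from 4 WTg and 11 EL1 UMIs. Nkx2-2 at -0.96 (-2.05 to 0.25), Rfx6 at -0.47 (-1.50 to 0.70) and Myt1 at -0.56 (-1.81 to 0.90) had intervals that include 0. Of all 11728 genes with at least 10 UMIs in these cells, 41.5% were above 0, with a median of -0.11, and Chga stood at -0.39 (-0.42 to -0.35). For Neurod1, Nkx2-2, Rfx6, St18 and Myt1 the sign within cluster 6 was thus the reverse of that over the whole class.

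**Figure D4:**
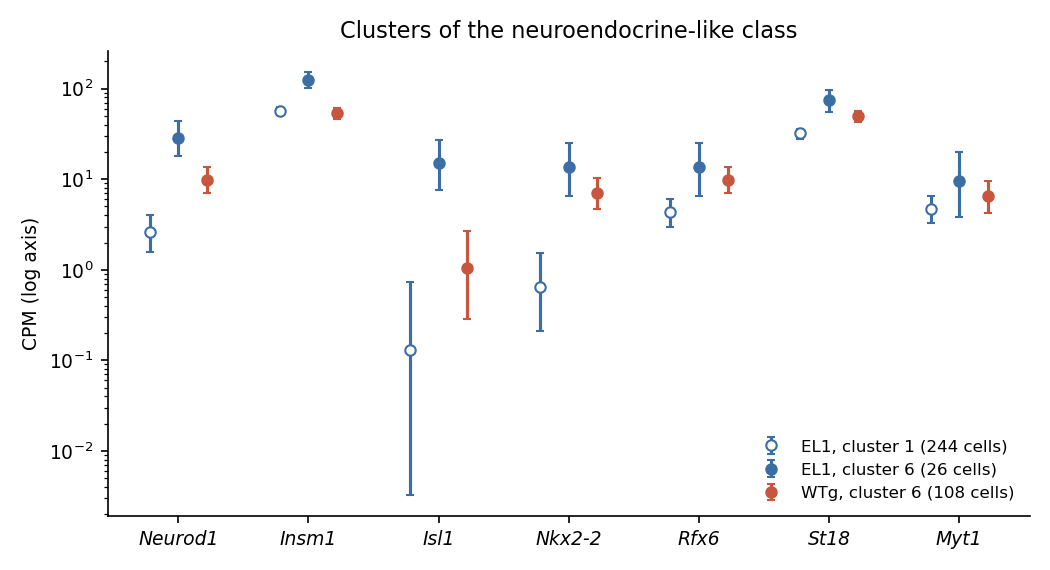
Level in CPM (log axis) of 7 genes in EL1 cluster 1 (open blue), EL1 cluster 6 (filled blue) and WTg cluster 6 (red), with 95% Poisson intervals. EL1 cluster 6 is the highest of the 3 for each of the 7 genes, and Isl1 falls to 0.130 CPM in EL1 cluster 1.

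At resolution 2, nearly all cells of cluster 6 fell into 2 groups that differed in some of the factors, though on few UMIs. The first, cluster 7 of that grouping (12 EL1 and 85 WTg cells, of which 12 and 79 were of cluster 6), kept the Serpina1 genes, Pcsk2 and Slc18a2, the vesicular monoamine transporter. The second, cluster 20 (13 EL1 and 28 WTg cells, all of cluster 6), was led by Ctla2a, Dnm3, Smarca1 and Tnni1, had 4 raised neuroendocrine markers with none among its top 10 genes, and took no name. Median depth was 17076 and 30424 UMIs in the EL1 cells of clusters 7 and 20, and 34774 and 27205 UMIs in the WTg cells.

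Of these groups, cluster 20 held most UMIs of Neurod1 and Isl1. In EL1, Neurod1 had 20 UMIs in 8 of 13 cells of cluster 20 and 1 UMI in the 12 cells of cluster 7. In WTg it had 35 UMIs in 14 of 28 cells of cluster 20 and 3 UMIs in 1 of 85 cells of cluster 7. Isl1 had only 10 UMIs against 1 in EL1 and 4 against 0 in WTg. Cluster 20 took up 13 of the 26 EL1 cells of cluster 6 and 28 of its 108 WTg cells, and within it Neurod1 stood at 44.8 CPM in EL1 and 37.0 CPM in WTg.

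Most UMIs of Nkx2-2 and Myt1 in these groups lay in cluster 7, which in WTg was also the larger group. Nkx2-2 had 8 UMIs in 5 of 12 EL1 cells of cluster 7 and 2 UMIs in 1 of 13 cells of cluster 20. In WTg it had 26 UMIs in 19 of 85 cells against 1 UMI in 28 cells. Myt1 had 6 UMIs against 1 in EL1 and 25 against 2 in WTg. In WTg this was 7.71 CPM against 2.12 CPM, and the interval of the ratio includes 0 (below). Taking both groups together, 11 EL1 cells held Neurod1 or Isl1, 11 held Nkx2-2 or Myt1 and 1 held members of both pairs. In WTg these numbers were 16, 33 and 1. Over all kept cells, whose depths differ widely, the numbers were 35, 201 and 7 in EL1 and 37, 137 and 6 in WTg. The pairs were formed from the values of clusters 7 and 20, so a low overlap there was built in. No separation of the pairs is read from these counts.

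In WTg, where both groups had at least 20 cells, the log2 ratio of cluster 20 over cluster 7 was 5.32 (3.66 to 7.67) for Neurod1 and 1.24 (0.84 to 1.64) for Insm1. It was -2.92 (-8.28 to -0.32) for Nkx2-2 and -1.87 (-4.99 to 0.14) for Myt1, while St18 stood at -0.01 (-0.53 to 0.48) and Rfx6 at -0.41 (-1.84 to 0.79). The median of all 11488 genes with at least 10 UMIs was -0.01. Chga was higher in cluster 7, with 8027 CPM against 4044 CPM in WTg and 15007 CPM against 5444.5 CPM in EL1. St18 and Rfx6 were carried by both groups, and the EL1 groups are too small for a ratio. These groups were looked at after the values were seen.

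The relation to Chga was then followed cell by cell. After thinning to 5000 UMIs, cells with no Chga UMI (286 in EL1 and 238 in WTg) were set apart, and the others were split into tertiles by their Chga share of all UMIs. The cells set apart are called cells without Chga below. Over all their UMIs they still held Chga at 36.7 CPM in EL1 and 33.5 CPM in WTg, with single cells up to 400 and 553 CPM. Levels in CPM below are likewise from all UMIs. No cell without Chga was neuroendocrine-like, and 68.1% of the highest tertile was in EL1 and 51.2% in WTg. Chga was among the markers that named the class and was not kept out of the grouping, so this overlap was partly built in. The share of cells with any of the 9 factors rose at each step, in EL1 from 7.69% through 17.0% and 30.9% to 46.3%, and in WTg from 5.04% through 12.9% and 19.4% to 31.8%.

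Insm1 went from 16.9 CPM in EL1 cells without Chga to 34.0, 60.9 and 70.6 CPM over the tertiles. In WTg it went from 1.78 CPM to 7.78, 19.6 and 47.9 CPM. The log2 ratio of the highest tertile over the cells without Chga was 2.06 (1.82 to 2.31) in EL1 and 4.75 (4.05 to 5.54) in WTg. In each of the 4 groups the WTg level of Insm1 was below that of EL1, and the intervals did not overlap. How many of all genes do the same is not given here. The tertiles were cut within each library and are not matched in Chga, which stood at 4111 CPM in EL1 and 2043 CPM in WTg in the middle tertile and at 12490 and 6792 CPM in the highest.

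St18 went from 4.89 to 41.0 CPM in EL1 and from 4.20 to 36.7 CPM in WTg, log2 ratios of 3.07 (2.65 to 3.51) and 3.13 (2.64 to 3.65). Here the intervals of the libraries overlapped in each of the 4 groups. Neurod1 went from 0.349 to 3.69 CPM in EL1 (4 and 27 UMIs) and from 0.840 to 5.70 CPM in WTg (8 and 39 UMIs), log2 ratios of 3.40 (1.88 to 5.38) and 2.76 (1.64 to 4.07). Rfx6 had 3 UMIs in EL1 cells without Chga, 0.262 CPM, and 40 UMIs, 5.47 CPM, in the highest tertile, a log2 ratio of 4.39 (2.73 to 6.72). In WTg it went from 1.68 to 6.13 CPM, a log2 ratio of 1.87 (1.01 to 2.80).

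Myt1 went from 2.71 to 6.70 CPM in EL1 and from 0.945 to 7.16 CPM in WTg, log2 ratios of 1.31 (0.63 to 2.01) and 2.92 (1.88 to 4.13). Nkx2-2 was level across Chga in EL1, at 3.14 CPM without Chga and 3.28 CPM in the highest tertile, a log2 ratio of 0.06 (-0.75 to 0.85). In WTg it stood at 1.05 and 4.97 CPM, a log2 ratio of 2.24 (1.19 to 3.42). Isl1 had too few UMIs for an order, with 1 and 9 in EL1 and 8 and 3 in WTg.

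Of the 4 genes with at least 50 UMIs in these cells in EL1, 3 (Insm1, St18 and Myt1) were past a log2 ratio of 1, against 11.7% of 11156 genes, and in WTg 4 of 4 (Insm1, Rfx6, St18 and Myt1) were, against 12.7% of 11060 genes. The medians were 1.68 in EL1 and 3.02 in WTg, beside 0.31 and 0.38 for all genes. They rest on different genes, since Nkx2-2 (0.06) was counted only in EL1 and Rfx6 (1.87) only in WTg. The medians of the libraries are therefore not compared. The cells without Chga include immune-like cells, 15 in EL1 and 38 in WTg. Immune-like cells as a whole held 1 UMI of the factors in EL1 and 0 in WTg. In WTg, Insm1 (328 and 17 UMIs), St18 (251 and 40), Rfx6 (42 and 16) and Myt1 (49 and 9) passed the minimum only with the highest tertile. So did Myt1 in EL1 (49 and 31 UMIs). The counts of 3 and 4 therefore describe these cells and support nothing further.

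**Figure D5:**
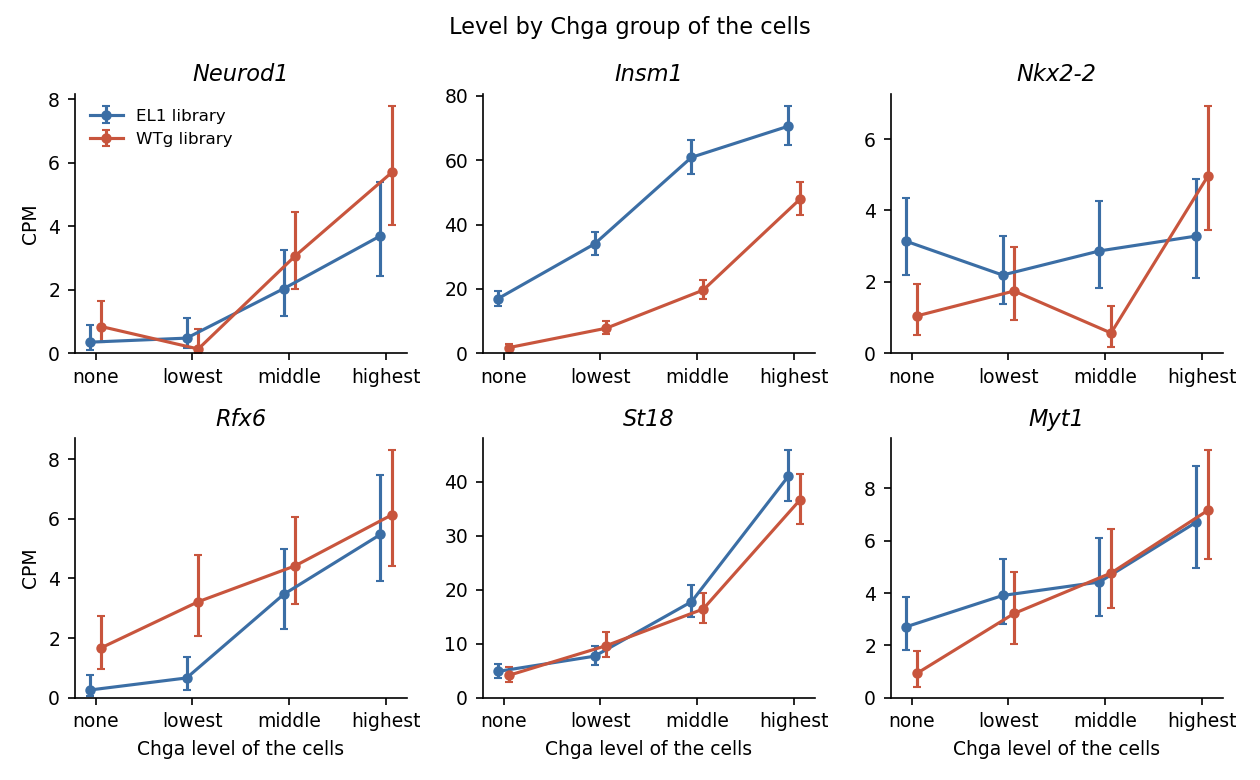
Level of 6 of the genes in CPM in cells with no Chga UMI and in the lowest, middle and highest tertile of the others (blue EL1, red WTg), with 95% Poisson intervals. Insm1 rises from 16.9 to 70.6 CPM in EL1 and from 1.78 to 47.9 CPM in WTg, and Nkx2-2 in EL1 stays between 2.19 and 3.28 CPM.

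Over single cells at 5000 UMIs, Spearman's rank correlation of the summed factors with Chga was 0.347 in 975 EL1 cells and 0.267 in 748 WTg cells. Inside the neuroendocrine-like class it was 0.214 (262 cells) and -0.0636 (106 cells). At 2000 and 10000 UMIs the values inside the class were 0.101 and 0.135 in EL1 and 0.0931 and 0.147 in WTg, so no difference between the libraries can be read from them. Counts this sparse give weak correlations, which describe these cells and no more.

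Few cells were caught with several factors at once. At 5000 UMIs, a share of 0.410% in EL1 (4 of 975 cells, 0.112 to 1.05) and 0.134% in WTg (1 of 748 cells, 0.00338 to 0.743) held at least 3 of the 9. Without thinning the shares were 8.45% (94 of 1113 cells) and 8.07% (73 of 905 cells), so this share moves with depth. At equal depth 1 factor or more was found in 40.5% of EL1 and 42.5% of WTg neuroendocrine-like cells, and at least 2 in 7.63% (4.72 to 11.5) and 14.2% (8.14 to 22.3).

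St18 and Insm1 were the pair most often met in 1 cell. Of 432 EL1 cells with Insm1, 184 also had St18, and of 174 WTg cells with Insm1, 105 did. Seen from St18, these were 61.7% of its 298 EL1 cells and 41.7% of its 252 WTg cells. Of the cells with Neurod1, 20 of 29 in EL1 and 17 of 31 in WTg had Insm1, 9 and 5 had Rfx6, 5 and 4 had Isl1, and 3 and 2 had Nkx2-2.

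The cells with Neurod1 were found in the neuroendocrine-like class in 19 of 29 cases in EL1 and 15 of 31 in WTg. In WTg 7 more were in cluster 2, 5 in the mitotic cluster 11 and 4 in the acinar-like cluster 3. Ins1, Ins2, Gcg and Sst had 0 UMIs in the 1282467 UMIs of the EL1 cells and in the 1445204 UMIs of the WTg cells. Ddc, which makes amine transmitters, was present, with 36 UMIs in EL1 and 76 in WTg. The 21 cells with Isl1 likewise held 0 UMIs of those 4 hormones. Ppy and Ghrl, the hormone ghrelin, had 1 UMI each in the WTg cells with Neurod1 and 1 each in those with Isl1, and 0 in the EL1 cells.

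Other regulators of the endocrine lineage were taken from lists made for this work. Genes of these and the other lists below could pass the minimum of 50 UMIs through the highest Chga tertile alone. Their counts along Chga therefore describe these cells and support nothing further. Of 12 progenitor and Notch genes, Neurog3 had 0 UMIs in both libraries. Of the 8 with at least 50 UMIs in the EL1 contrast of highest tertile over no Chga, 2 were past 1, against 11.7% of all genes. Onecut1 at 1.65 was among them. Of the same 8, 1 was past -1 (Rest, the repressor of neuronal genes, at -2.23). In WTg, of 10 genes, 2 were past 1, among them Sox9 at 1.03, against 12.7% of all genes, and Rest at -1.49 was lower.

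Of 23 islet transcription factors, 8 in EL1 and 7 in WTg had enough UMIs. Past 1 were 4 in EL1 and 5 in WTg, against 11.7% and 12.7% of all genes. The 4 in EL1 were Rfx3 at 2.22, Prox1 at 2.08, Pdx1 at 1.78 and Hnf4a at 1.67. Among the 5 in WTg were Prox1 at 2.29, Hnf4a at 2.09, Rfx3 at 1.87 and Pdx1 at 1.63. In each library 1 gene of this list was past -1.

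Of the granule and exocytosis genes, a list that includes Chga itself, 12 of 13 were past 1 in EL1, against 11.7% of all genes. In WTg 13 of 14 were, against 12.7%, and the medians were 4.86 and 3.92. Since the cells were ordered by Chga, a member of this list, a rise along Chga was partly built in. These medians are therefore not compared with those of the transcription factors. Between the libraries over all cells, the granule list had a median of 0.39 with Pcsk2 at 4.43 and Resp18 at -1.83. In the same comparison the islet factors had a median of -0.10 with Hhex at -1.21.

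Of the hormone, amine and beta cell genes, 5 of 7 were past 1 along Chga in EL1, against 11.7% of all genes. In WTg 5 of 7 were, against 12.7%. Genes past 1 included Slc18a2 at 6.87 and 7.54 and Slc6a4, the serotonin transporter, at 4.24 and 4.42, and in WTg Ghrl at 4.69. Between the libraries over all cells, Ppy stood at -1.83 (10 WTg and 41 EL1 UMIs) and Ghrl at 1.08.

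The acinar transcription factors served as the contrasting lineage. Of 7, with a median of 0.29 between the libraries over all cells, Gata6 at 2.67 and Bhlha15 at 1.06 were higher in WTg. Of all genes, 6.85% were higher past 1 in that comparison. Along Chga, 2 of 6 in EL1 and 2 of 7 in WTg were past 1, against 11.7% and 12.7% of all genes. The medians were 0.14 and 0.65. The acinar enzymes took up 18.9% of all EL1 UMIs and 24.3% of WTg UMIs.

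Over the 20 library-by-cluster sums and 11048 genes, the 10 genes whose pattern was most like the mean of the 9 factors included Sh3bp4 (r = 0.92), Pnmal2 (0.92), Tox3 (0.91), Maneal (0.90), Nags (0.90), Cxxc4 (0.88), Actl6b (0.88), Mapre3 (0.87) and Wnt4 (0.87). Of these 10, 9 were also among the first 10 when the rare factors were left out.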

How the data were processed

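The authors sequenced 1 library per genotype and made UMI counts with Cell Ranger 6.0.2 (per the file headers) on GRCm38 (per the labels). Whether intronic reads were counted is not given in the sources used here. The deposited counts were used as they stand, and the dense table of counts as an alternative. The 9 genes and the other gene lists were chosen with earlier results of these data known. Library sums were given as CPM with exact Poisson intervals, log2 ratios with exact conditional binomial intervals and shares with Clopper-Pearson intervals, at 95%. A gene was counted as changed past a log2 ratio of 1, and 0 UMIs were set to 3 for the count over all genes. Lists needed 50 UMIs per gene. Scanpy 1.11.5 scaled counts to 10000 per cell, and 2000 variable genes, 30 principal components, 15 neighbours and Leiden resolution 1 (leidenalg 0.10.2) gave the clusters, with no correction between libraries. A name needed at least 3 markers raised by a log2 ratio of 1 in at least 10% of cells. Scrublet called 2 EL1 and 3 WTg doublets, which were kept. TMM factors came from edgeR 4.0.16. Named genes were all 9 factors, list genes past a log2 ratio of 1 with at least 50 UMIs, up to 6 per list, and the 10 genes most like the mean of the factors among those with at least 200 UMIs, with 2 more for each factor. A few genes that these rules name are not reported here. The ratio and interval scripts were tested on simulated data.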

Additional observations from a re-analysis of the deposited data

Results flagged for a closer look

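Nkx2-2 was singled out because it moved in opposite directions in the libraries. Its log2 ratio of neuroendocrine-like over other non-immune cells was -0.83 in EL1 (15 UMIs in the class) and 2.46 in WTg (27 UMIs in the class). The difference was not tested, since each genotype has 1 library. The class was mostly cluster 1 in EL1 and wholly cluster 6 in WTg, and EL1 cluster 6, with 10 of the 15 UMIs, stood at 13.7 CPM. The part of this difference in cluster makeup was not tested.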

How the results depend on the processing

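No paired analysis was possible because each genotype has 1 library and no result comes from a test. Of 245 values under other settings, 215 stayed within the counting interval of the reported value (0.1 for a rank correlation), 28 moved outside it and 2 turned. The turned ones were St18 at -0.14 (resolution 0.5) and Neurod1 at -1.67 (resolution 2), both in the neuroendocrine-like class, whose median log2 ratio moved from 0.47 to 0.052 and 0.022 under the same settings. Which cells the class holds changes there by construction. The rank correlation of the summed factors with Chga moved in EL1 from 0.347 to 0.216 (thinned to 2000 UMIs) and 0.462 (not thinned), and in WTg from 0.267 to 0.384 (thinned to 10000 UMIs) and 0.510 (not thinned). The share of cells with at least 3 factors moved in EL1 to 0.0951% (2000 UMIs), 1.38% (10000 UMIs), 8.45% (not thinned) and 3.49% (at least 2 factors), and in WTg to 0% (2000 UMIs), 1.14%, 8.07% and 2.67%. TMM shifted all log2 ratios by 0.11 over all cells and by -0.12 in the class, and Insm1 over all cells stood at -1.14 under TMM. Leaving out the barcodes found in both libraries, chosen after seeing the data, was among the settings. Some of the 245 values are repeats. Over all cells, the dense table gave the same values as leaving out cells with over 10000 genes. Keeping the factors in the grouping left the values in the class unchanged. Depth limits Pax6, Fev and Isl1, and 1 library per genotype limits every comparison between genotypes.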

Other observations

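The 508 EL1 and 583 WTg barcodes that did not pass the cell limits held 1210387 and 1864309 UMIs. The factors were present in them too, with 19 Insm1 UMIs in EL1 (15.7 CPM, 9.45 to 24.5) and 11 in WTg (5.90 CPM, 2.95 to 10.6), and 14 and 26 St18 UMIs (11.6 and 13.9 CPM). Chga stood at 2232 and 973 CPM in them.

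Over the 20 library-by-cluster sums, the genes most like each single factor were Nudt3 and Nefl for Neurod1, Nipsnap1 and Creb3l3 for Insm1, Vash2 and Tcaf1 for Nkx2-2, 9030622O22Rik and A230051N06Rik for Rfx6, Sh3bp4 and Klhl32 for St18, and Ikzf4 and Maneal for Myt1. Sh3bp4 had an r of 0.96 with St18, and it was also the gene most like the mean of all 9.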
